A study of Mus musculus with 10 samples.

Results

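The proliferins are secreted glycoproteins of the prolactin family, encoded in the mouse by the Prl2c genes on chromosome 13. They are known from the placenta, where trophoblast giant cells release them and where they promote blood vessel growth, and from fibroblasts, in which serum and growth factors raise their mRNA. Proliferin binds the cation-independent mannose 6-phosphate receptor, encoded by Igf2r, and carries mannose 6-phosphate on its sugar chains. Upstream of a proliferin gene, AP-1 (dimers of Jun and Fos proteins) and the glucocorticoid receptor meet at a shared control element.

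The members were taken by symbol, as every gene whose name starts with Prl2c, and the family was selected on its measured difference between culture forms in these libraries, so its levels are given as a description with no test. The rule found 4 of the 26888 genes: Prl2c1 (ENSMUSG00000062551), Prl2c2 (ENSMUSG00000079092), Prl2c3 (ENSMUSG00000056457) and Prl2c5 (ENSMUSG00000055360). Levels are in RPM, reads of a gene per M reads on all genes of the library, where M stands for the SI prefix mega. All 4 exceeded 0.5 RPM in at least 1 library, but Prl2c1 did so only in the flat cultures labelled de Bruijn lab and Prl2c5 only in flat cultures.

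RNA was sequenced from OP9, a stromal line of strain (C57BL/6xC3H)F2-op/op, which supports blood cell development in culture. The labels place its origin in fetal calvaria, and the authors' paper in calvaria of newborn op/op mice. The cells were either grown flat (4 libraries) or packed into reaggregates and held at the liquid-gas interface for 48 h (6 libraries), of which 3 received IL-3, given in the labels as 200 μg/μl, and 3 did not. Of the flat cultures, numbers 2 and 4 are labelled as coming from the de Bruijn lab, and numbers 1 and 3 carry no source label. All libraries came from the same line, and nothing in the labels says that they were separate cultures, so p-values measure the spread between these samples, which may be technical.

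Taking the commonest value above 0 in a library as that of 1 read, between 7.35 M and 9.43 M reads per library fell on genes, with a median of 8.37 M, and 3 reads corresponded to between 0.318 and 0.408 RPM.

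Prl2c2, also called proliferin, was measured in the 6 reaggregates at a lowest 1.52, a median 8.64 and a highest 11.6 RPM. In flat cultures 1 and 3 it stood at 36.3 and 23.5 RPM, and in flat cultures 2 and 4 at 337 and 649 RPM. The reaggregates and the flat cultures did not overlap, and the flat cultures labelled de Bruijn lab stood far above the other flat cultures. Mean Prl2c2 was 7.12 ± 4.22 RPM (SD, n = 6) in reaggregates, 29.9 ± 9.05 RPM (SD, n = 2) in unlabelled flat cultures and 493 ± 221 RPM (SD, n = 2) in de Bruijn flat cultures.

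Prl2c3, a near copy of Prl2c2, ranged over the reaggregates from 0.833 RPM through a median of 3.91 RPM to 7.63 RPM. It stood at 24.4 and 15.2 RPM in flat cultures 1 and 3, and at 355 and 676 RPM in flat cultures 2 and 4. The libraries fell in the same 3 ranges as for Prl2c2. Mean Prl2c3 was 4.06 ± 2.47 RPM (SD, n = 6) in reaggregates, 19.8 ± 6.51 RPM (SD, n = 2) in unlabelled flat cultures and 516 ± 227 RPM (SD, n = 2) in de Bruijn flat cultures.

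The remaining members were far less abundant. Prl2c5 lay between 0.0256 and 0.41 RPM in reaggregates, at 1.67 and 1.24 RPM in flat cultures 1 and 3, and at 7.54 and 15.1 RPM in flat cultures 2 and 4. Prl2c1 lay between 0.0185 and 0.113 RPM in reaggregates, at 0.254 and 0.421 RPM in flat cultures 1 and 3, and at 2.52 and 4.93 RPM in flat cultures 2 and 4. In every reaggregate Prl2c1 was below the level of 3 reads, and in reaggregates 1 to 5 it was below that of 1 read, so fractions of reads had been assigned. Prl2c5 was below the level of 3 reads in every reaggregate except 2, and below that of 1 read in reaggregates 3 and 4. Per kb of exon, the de Bruijn flat cultures averaged 580 RPM for Prl2c2, 606 RPM for Prl2c3, 9.62 RPM for Prl2c5 and 3.9 RPM for Prl2c1.

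The members share reads, and their sum does not depend on how those reads were divided among them. Reaggregates 1 to 6 had a summed level of 16.3, 13.8, 2.4, 4.61, 12 and 19.6 RPM. Flat cultures 1 and 3 had 62.6 and 40.4 RPM, and the de Bruijn flat cultures 2 and 4 had 702 and 1345 RPM. Flat culture 4 was highest, followed by flat cultures 2, 1 and 3 and then reaggregates 6, 1, 2, 5, 4 and 3. The 95% exact Poisson intervals, which cover counting error only, overlapped between each pair of neighbours among reaggregates 6 (16.9 to 22.6 RPM), 1 (13.6 to 19.3 RPM), 2 (11.2 to 16.7 RPM) and 5 (9.86 to 14.4 RPM), and between reaggregates 4 (3.23 to 6.38 RPM) and 3 (1.5 to 3.63 RPM). Flat cultures 1 (57.5 to 68.2 RPM) and 3 (36.1 to 44.9 RPM) were apart by more than counting error.

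**Figure D1:**
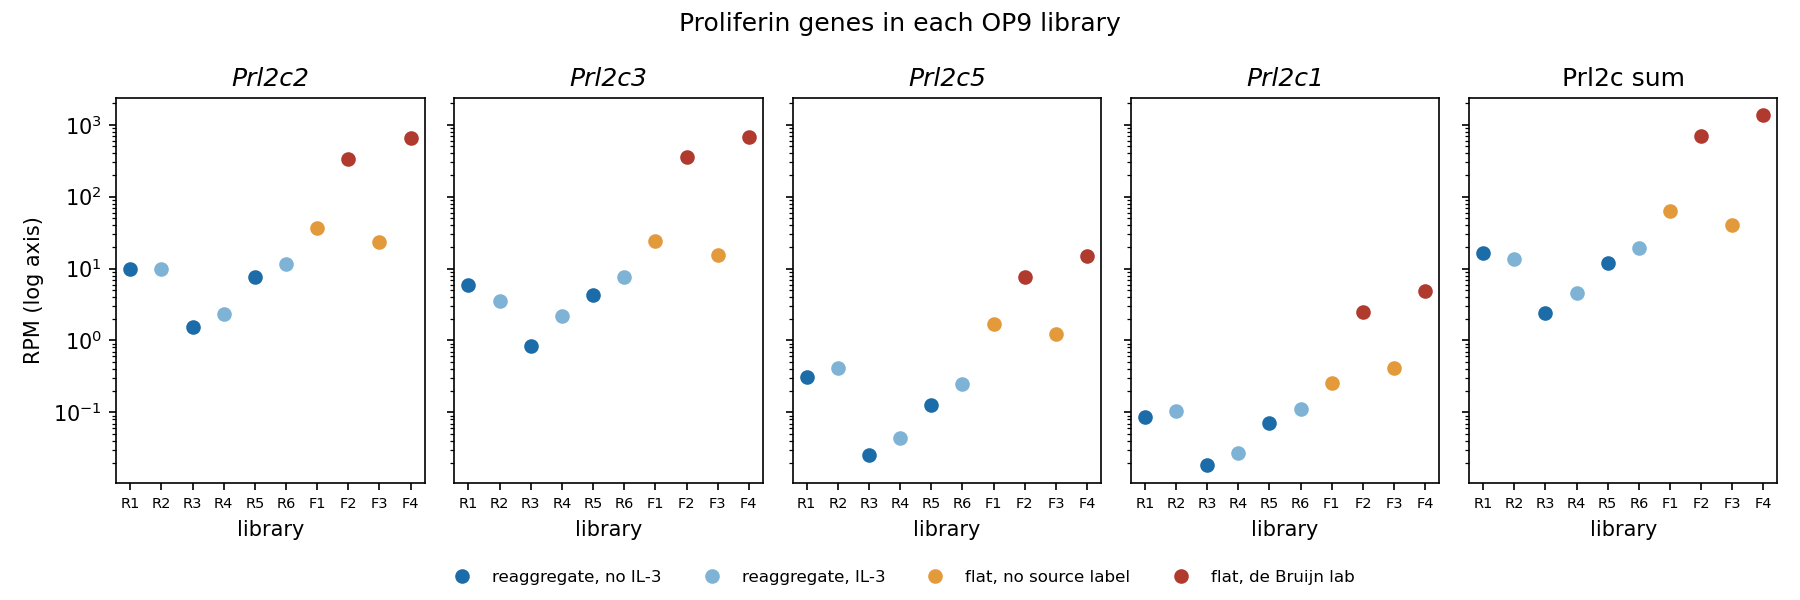
RPM on a log axis for each proliferin gene and for their sum, with a point for each library (R1 to R6, reaggregates; F1 to F4, flat cultures) coloured by group. The sum ran from 2.4 to 19.6 RPM in reaggregates and reached 702 and 1345 RPM in the de Bruijn flat cultures.

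The ratio of means placed the de Bruijn flat cultures 19.9-fold above the unlabelled flat cultures for the sum, and the unlabelled flat cultures 4.5-fold above the reaggregates. On the log2(RPM + 0.5) scale, which understates changes of low genes, reaggregates minus flat cultures was -4.50 for the sum, -4.24 for Prl2c2 and -4.65 for Prl2c3. Taken against the de Bruijn flat cultures alone the difference in the sum was -6.63, and against the unlabelled flat cultures alone it was -2.37. The difference was larger against the de Bruijn flat cultures and had the same direction against either kind. The source of the reaggregated cells is not labelled, so culture form and cell source cannot be told apart.

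The reaggregates with and without IL-3 overlapped in their proliferin levels. With IL-3 the sum averaged 12.7 ± 7.55 RPM (SD, n = 3) and without it 10.2 ± 7.11 RPM (SD, n = 3), a log2 difference of 0.42. From each reaggregate without IL-3 to the next one with it, the sum went from 16.3 to 13.8 RPM, from 2.4 to 4.61 RPM and from 12 to 19.6 RPM, so the direction was not the same in each. Leaving out 1 reaggregate moved it both ways: it was -0.35 without reaggregate 3, 0.01 without 6, 0.92 without 1 and larger still without 4. Across all 16933 genes tested with limma, 0 (0%) differed between reaggregates with and without IL-3 when a call needed a 2-fold change and an adjusted p (Benjamini-Hochberg) no higher than 0.05, and 68 had an unadjusted p under 0.05. With consecutive reaggregates as a block, 0 differed and 564 had an unadjusted p under 0.05.

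The balance between Prl2c2 and Prl2c3 also varied. Together they made up 95.9% to 98.6% of the sum in every library. Prl2c3 over Prl2c2 was 1.05 and 1.04 in flat cultures 2 and 4, 0.672 and 0.647 in flat cultures 1 and 3, and between 0.361 and 0.924 in the reaggregates. The ratio depends on how the shared reads were divided, which was not tested.

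On NCBIM37, Prl2c3 (chr13:12883089-12892345, minus strand), Prl2c2 (chr13:13088393-13097659, minus strand) and Prl2c5 (chr13:13274982-13284190, plus strand) lie near each other, and Prl2c1 (chr13:27941213-27949662, plus strand) lies apart, among other prolactin family genes. The coding sequences of Prl2c2 and Prl2c3 were both 675 bases long and differed at 3 bases, 99.6% identical, with a longest identical run of 356 bases. Prl2c5 was 93% identical to Prl2c2 and Prl2c1 was 92.4% identical to it. Of the 801 windows of 50 bases, the length of a read, in the Prl2c2 transcript, 92 (11.5%) occurred in no other protein-coding gene, against 167 of 801 (20.8%) for Prl2c3, 700 of 922 (75.9%) for Prl2c5 and 578 of 806 (71.7%) for Prl2c1. None of these windows occurred in a gene outside the 4.

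The coding positions that tell Prl2c2 from Prl2c3 are shown because only reads over them, or over differing untranslated bases, can separate the pair. Counted from 1 at the start codon, with the Prl2c2 base first, they are T14C in exon 1, C200A in exon 2 and T319G in exon 4 of 5, and capitals mark the differing base. The windows lie on the minus strand of NCBIM37, for Prl2c2 at chr13:13097563-13097593, chr13:13094401-13094441 and chr13:13089694-13089734, and for Prl2c3 at chr13:12892249-12892279, chr13:12889098-12889138 and chr13:12884401-12884441.
Prl2c2 exon 1: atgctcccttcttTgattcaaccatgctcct
Prl2c3 exon 1: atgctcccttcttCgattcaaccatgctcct
Prl2c2 exon 2: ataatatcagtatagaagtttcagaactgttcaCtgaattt
Prl2c3 exon 2: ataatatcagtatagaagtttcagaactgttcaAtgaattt
Prl2c2 exon 4: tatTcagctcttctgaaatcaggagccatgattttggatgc
Prl2c3 exon 4: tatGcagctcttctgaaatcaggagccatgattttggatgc

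Promoters are shown because the members moved together. The RefSeq promoter table (GRCm38.p6) matched 2 of the 4 members, Prl2c3 and Prl2c5; Prl2c1 and Prl2c2 had no entry. Their 250 bases before the start, at chr13:12800080-12800329 on the minus strand and chr13:13182466-13182715 on the plus strand of that build, were 96% identical. TGANTCA, which is wider than the usual AP-1 site TGACTCA or TGAGTCA, was searched on both strands. It occurred in Prl2c3, in capitals as TGAATCA, and not in Prl2c5, and in 6.75% of 32851 promoters of the same length. The middle A of TGAATCA is outside the usual site, which occurred in neither promoter. AGAACA, a glucocorticoid receptor half-site, and TATAAA occurred in neither and in 16.1% and 12.4% of those promoters. TATAAA was searched as exact letters, and TATATAA, which both promoters hold near the start, was not searched for. A match is a description of letters and not a bound site.
Prl2c3: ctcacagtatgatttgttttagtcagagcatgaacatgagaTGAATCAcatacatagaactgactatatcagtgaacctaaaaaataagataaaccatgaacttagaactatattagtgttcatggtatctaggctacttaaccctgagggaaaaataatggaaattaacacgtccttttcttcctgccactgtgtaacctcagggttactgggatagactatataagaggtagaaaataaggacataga
Prl2c5: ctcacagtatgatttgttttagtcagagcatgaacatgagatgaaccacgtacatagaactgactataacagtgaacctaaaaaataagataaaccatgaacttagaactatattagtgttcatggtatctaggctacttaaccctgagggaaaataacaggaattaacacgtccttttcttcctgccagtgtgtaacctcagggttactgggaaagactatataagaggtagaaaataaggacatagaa

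The other prolactin family genes were nearly silent. Of 18, 8 were listed at 0 in every library and 15 never exceeded 3 reads. Their summed level was 0.955 and 1.7 RPM in flat cultures 2 and 4, 0.36 RPM in flat culture 3, and at most 0.00154 RPM in flat culture 1 and in every reaggregate. Prl8a9 was the most abundant, at 0.477 and 0.607 RPM in flat cultures 2 and 4 and at 0 in the other libraries.

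Across all genes, limma called 1239 of 16933 higher in reaggregates (7.32%) and 1106 lower (6.53%). Without flat culture 3 the number higher was 2121, and without flat culture 4 it was 766. Between the flat sources 309 genes were higher in the de Bruijn cultures (1.82%) and 656 lower (3.87%), but 70 and 134 with no filter, 507 and 635 with quantile normalization and 726 and 1622 in the fit of all 10 libraries with 3 groups. The shares in the main fits are the background for the gene lists. Between culture forms, with only the 3 reaggregates without IL-3 345 genes were higher, and with only the 3 with it 277. Consecutive reaggregates correlated in their deviations from the mean (r = 0.50, 0.72 and 0.76), so the 6 may not be independent, and with each pair averaged 312 were higher and 429 lower. In each of these 3 fits, which have fewer samples, the same 22 of the 35 called genes that the text names from the lists and the neighbours were no longer called, and they are named below. Against unlabelled flat cultures alone 627 were higher and 1044 lower, and 15 of the 35 lost their call. With no filter 8 of the 35 lost it (Jun, Fos, Mki67, Angpt1, Col1a2, Pparg, Fabp4 and Cebpa), with the replicate block 3 (Mki67, Angpt1 and Fabp4) and with quantile normalization 1 (Tgfb2).

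Between the flat sources, none of the lists of genes chosen by role or as markers, except the adipocyte markers, had a gene called higher in the de Bruijn cultures. Called lower there were 0 of 14 receptors and signalling genes, 0 of 3 mannose 6-phosphate tagging genes, 0 of 12 AP-1 and glucocorticoid receptor genes, 2 of 22 mitogens and their receptors, 1 of 13 proliferation markers, 1 of 14 angiogenic factors, 1 of 9 stromal markers and the 1 trophoblast marker tested, against 3.87% of all genes.

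No tested gene beside the proliferin genes was called lower in reaggregates. Of 18 neighbours in the table, 10 were tested, 2 were called higher in reaggregates and 0 lower, against 7.32% and 6.53% of all genes. Their median log2 difference was 0.06 against 0.04 over all genes. The called neighbours were Sox4, a transcription factor gene beyond Prl2c1, with a log2 difference of 2.37 (limma, SE 0.23, adjusted p = 9.8e-05), and AL606511.2, which lies within it. Both calls are thus at the same place and are not separate. Heatr1, which acts in ribosome production, averaged 24.4 RPM in reaggregates and 33.7 RPM in flat cultures, and Nid1, a basement membrane gene, averaged 861 and 794 RPM. Neither passed the test.

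Among receptors and signalling genes, 2 of 14 were called higher in reaggregates and 0 lower, with a median log2 difference of 0.02 against 0.04 over all genes. Igf2r, the proliferin receptor, had 205, 223 and 276 RPM as the lowest, median and highest of the reaggregates, and 84.5, 110, 141 and 49.8 RPM in flat cultures 1 to 4. Igf2r did not overlap between the groups and was higher in reaggregates by a log2 difference of 1.37 (limma, SE 0.25, adjusted p = 0.0028), a call lost with consecutive reaggregates averaged (adjusted p = 0.058). Stat3, a transcription factor downstream of cytokine receptors, was higher by 1.63 (limma, SE 0.39, adjusted p = 0.011), a call also lost with that averaging. Against unlabelled flat cultures alone the Stat3 difference was 0.83 and was not called, and against de Bruijn flat cultures alone it was larger. Prlr, the prolactin receptor, never exceeded 0.545 RPM. Of 3 genes that make or uncover the mannose 6-phosphate tag, Gnptg, a subunit of the tagging enzyme, was higher in reaggregates by 1.40 (limma, SE 0.15, adjusted p = 0.00017), and Gnptab and Nagpa did not pass.

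**Figure D2:**
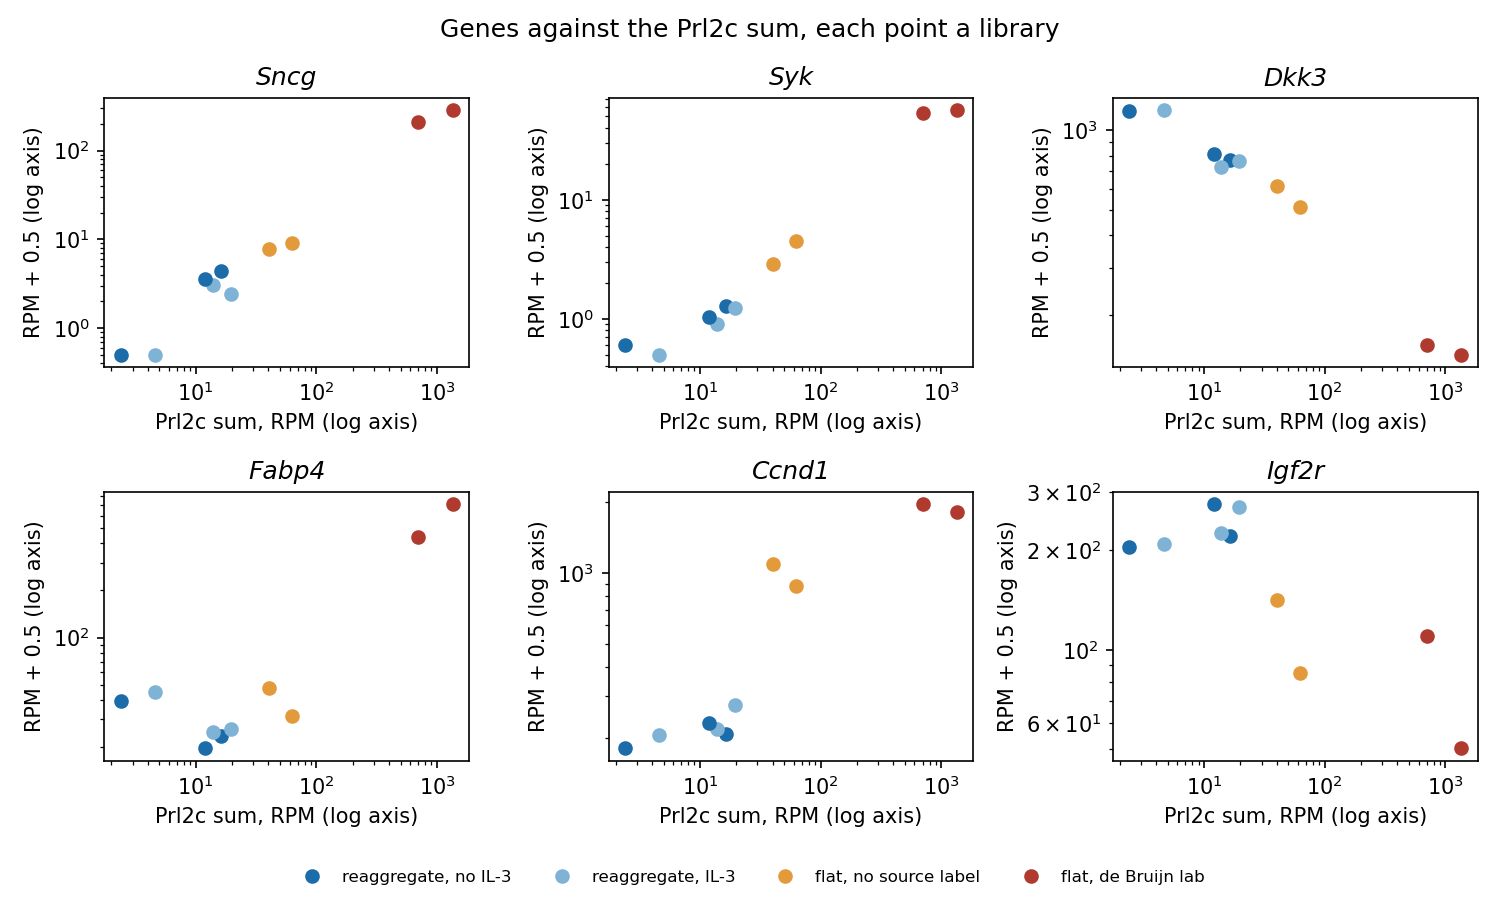
RPM + 0.5 of 6 genes against the sum of the proliferin genes in RPM, both on log axes, with a point for each library coloured by group. Igf2r lay between 205 and 276 RPM in the reaggregates and at or below 141 RPM in the flat cultures.

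Of 14 AP-1 and glucocorticoid receptor genes, 12 were tested, 7 were called higher in reaggregates and 1 lower, with a median log2 difference of 1.35 against 0.04 over all genes. Fosl1 was the lower gene, with a log2 difference of -1.75 (limma, SE 0.22, adjusted p = 0.00041). It stood at 63.3, 147, 110 and 145 RPM in flat cultures 1 to 4 and between 26.6 and 36.2 RPM in reaggregates. Atf3, a stress-induced factor, was higher in reaggregates by 4.08 (limma, SE 0.63, adjusted p = 0.0012), Fosb by 4.19 (limma, SE 0.92, adjusted p = 0.0073) and Per1, a clock gene that glucocorticoids induce, by 2.31 (limma, SE 0.37, adjusted p = 0.0014). Tsc22d3 and Fkbp5 of the same list differed by 0.45 and -0.07 and were not called. Jun, Jund, Fos, Fosb and Fosl2 lost their calls with consecutive reaggregates averaged and against unlabelled flat cultures alone. Jun also lost its call without flat culture 1, 2 or 4, Fos without flat culture 1 or 4, and Fosl2 without flat culture 1. Flat culture 3 was the exception among flat cultures, with 569 RPM of Jun and 436 RPM of Fos, within or above the range of the reaggregates. Leaving out a library gave log2 differences of 3.26 to 5.41 for Fosb and 3.64 to 4.99 for Atf3, both largest without flat culture 3. Nr3c1, the glucocorticoid receptor, averaged 135 RPM in reaggregates and 102 RPM in flat cultures and was not called. The authors' methods have reaggregates taken apart with collagenase/dispase before RNA extraction and give no such step for flat cultures. That step and culture form cannot be told apart here, and its part in these differences was not tested.

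Among 24 mitogens and their receptors, 22 were tested, 6 were called higher in reaggregates and 2 lower. The lower genes were the EGF-like ligands Ereg, with a log2 difference of -3.28 (limma, SE 0.45, adjusted p = 0.00063), and Hbegf, with -1.26 (limma, SE 0.25, adjusted p = 0.0042). Their receptor Egfr was higher in reaggregates by 2.15 (limma, SE 0.47, adjusted p = 0.0071). Igf1 was higher by 4.36 (limma, SE 0.88, adjusted p = 0.0051), at 53.6, 2.03, 61.4 and 2.05 RPM in flat cultures 1 to 4 against 153 to 358 RPM in reaggregates. Pdgfra, Pdgfrb, Tgfb2 and Tgfb3 made up the rest of the higher genes, and Tgfb2 lost its call without flat culture 1 or 4. Egfr, Igf1, Tgfb2 and Hbegf lost their calls with consecutive reaggregates averaged, and Tgfb2 and Hbegf did so against unlabelled flat cultures alone. The list's median log2 difference was 0.56 against 0.04 over all genes.

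Of 14 proliferation markers 13 were tested, 11 were called lower in reaggregates and 0 higher, with a median log2 difference of -1.57 against 0.04 over all genes. Ccnd1, a cyclin that growth factors induce, stood at 880, 1960, 1090 and 1810 RPM in flat cultures 1 to 4 and between 180 and 276 RPM in reaggregates, and fell by 2.64 on the log2 scale (limma, SE 0.23, adjusted p = 6.6e-05). Ccnb1, a mitotic cyclin, fell by 2.70 (limma, SE 0.31, adjusted p = 0.00023). Mki67 fell by 1.57 (limma, SE 0.45, adjusted p = 0.025), and flat culture 2, at 39 RPM, lay within the range of the reaggregates, 34.9 to 44.3 RPM. The Mki67 call was lost without flat culture 1, with no filter, with the replicate block and with consecutive reaggregates averaged, and against the de Bruijn flat cultures alone the difference was -0.52 and was not called. Top2a also lost its call with that averaging and against the de Bruijn flat cultures alone. The markers' summed level ran from 634 to 873 RPM over the reaggregates, while the flat cultures held 2891 to 3145 RPM. Ccnd1 was the most abundant of them and was higher in flat cultures 2 and 4 than in 1 and 3, so the near-equal sums of the flat cultures hide lower mean levels of each of the others in the de Bruijn cultures. Top2a stood at 489, 147, 412 and 158 RPM in flat cultures 1 to 4, and the list's median log2 difference of de Bruijn minus unlabelled flat cultures was -0.80 against -0.17 over all genes. Fewer cycling cells and less RNA per cell cannot be told apart in bulk samples.

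Of 14 angiogenic factors, 3 were called higher in reaggregates and 1 lower, with a median log2 difference of 0.25 against 0.04 over all genes. Angptl4 was higher by 1.48 (limma, SE 0.13, adjusted p = 7.5e-05), and Cyr61, a matrix-bound factor, was lower, with a log2 difference of -1.51 (limma, SE 0.29, adjusted p = 0.0041). Angpt1 and Thbs2 were also higher, but Thbs2 lost its call without flat culture 4, and Angpt1 lost its call without flat culture 2 or 4 or without any of reaggregates 1, 2, 4, 5 and 6. Angpt1, Thbs2 and Cyr61 lost their calls with consecutive reaggregates averaged and against unlabelled flat cultures alone. Vegfa averaged 147 RPM in reaggregates and 133 RPM in flat cultures and did not pass.

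Markers were used to check the label of the cells. Stromal markers summed to between 16643 and 24732 RPM in reaggregates and to 6284, 8978, 13265 and 6453 RPM in flat cultures 1 to 4. Of 10, 0 were at 0 in every library and 1, Thy1, never exceeded 3 reads. Col1a2 was the most abundant on average, but in flat cultures 2 and 4 it stood at 2070 and 1190 RPM, below Cxcl12 at 4560 and 3990 RPM. Of the stromal markers 6 of 9 tested were called higher in reaggregates and 1 lower. Col1a1, Col1a2 and Col3a1 lost their calls with consecutive reaggregates averaged, and Col1a2 did so against unlabelled flat cultures alone. Of 6 trophoblast markers in the table, 5 never exceeded 3 reads, and their sum was at most 2.04 RPM. Endothelial markers summed to at most 1.5 RPM. Of 4 blood cell markers in the table, Ptprc and Gata1 were at 0 in every library, Cd68, the most abundant, lay between 1.61 and 8.23 RPM and Itgam between 0.198 and 0.683 RPM, and 0 of the 2 tested were called.

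The sum of the adipocyte markers was also highest in flat cultures 2 and 4. The 5 in the table summed to between 90.9 and 133 RPM in reaggregates, 116 and 170 RPM in flat cultures 1 and 3, and 1020 and 1126 RPM in flat cultures 2 and 4. Fabp4, a fatty acid carrier, was the most abundant of them in the de Bruijn flat cultures and, through these, on average over all libraries, and it stood at 31.3, 435, 47.2 and 711 RPM in flat cultures 1 to 4 and between 19.1 and 44.4 RPM in reaggregates. Adipoq never exceeded 0.768 RPM, its level in reaggregate 4, and stood at 0.358 and 0.121 RPM in flat cultures 2 and 4. Against flat cultures Fabp4 was lower in reaggregates, with a log2 difference of -2.37 (limma, SE 0.77, adjusted p = 0.039), a call lost on leaving out any library except flat culture 1 or 3. Pparg and Cebpa were also called lower, and Pparg lost its call without flat culture 2 or 4 or any of reaggregates 1 to 5, and Cebpa without flat culture 2 or 4. All 3 also lost their calls with consecutive reaggregates averaged and against unlabelled flat cultures alone. Between the flat sources, 3 of 5 adipocyte markers (Pparg, Fabp4 and Plin1) were called higher in the de Bruijn cultures and 0 lower, against the 1.82% of all genes that were higher. Plin1 passed the 0.5 RPM filter only through flat cultures 2 and 4, at 1.43 and 1.21 RPM. Its call therefore cannot be set against that share. The part of this in the proliferin difference was not tested.

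The genes most like the proliferin sum were found by Pearson r of log2(RPM + 0.5) over the 10 libraries, among 11659 genes with a mean of at least 5 RPM, and are a description with no test. The 10 highest were 9630033F20Rik (r = 0.993), Bid, Trim25, Sncg, Exosc9, Ripk2, Syk, Fam164a, Thumpd3 and Ccdc127 (r = 0.982). All points are libraries of the same line, with the de Bruijn flat cultures far from the rest, and 434 genes (3.72%) had r above 0.9 and 568 (4.87%) had r below -0.9. Sncg, which encodes gamma-synuclein, stood at 8.63, 207, 7.3 and 284 RPM in flat cultures 1 to 4 and at most 3.85 RPM in reaggregates. Syk, a tyrosine kinase, stood at 4.03, 53.2, 2.4 and 55.9 RPM in flat cultures and at most 0.77 RPM in reaggregates. The 5 lowest were Dkk3 (r = -0.988), Ntrk3, Klhdc3, Pkdcc and Lrpap1 (r = -0.986). Dkk3, a secreted protein of the Dickkopf family, stood between 728 and 1190 RPM in reaggregates and at 510, 154, 615 and 141 RPM in flat cultures 1 to 4.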

How the data were processed

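Libraries were made with a TruSeq kit from total RNA and read as single-end 50-base reads. The submitters' processing notes name TopHat 1.2.0, DESeq and NCBIM37. The authors deposited RPM values for each gene and library, which were used here; columns of their own fold changes and adjusted p-values for reaggregates against flat cultures were not used. RPM of 1 read was the commonest value above 0 in a library. Genes above 0.5 RPM in at least 1 library were fitted as log2(RPM + 0.5) with limma 3.58.1 in R 4.3.3, with a mean-variance trend, and called where the change was 2-fold or more with an adjusted p (Benjamini-Hochberg) no higher than 0.05. The count test was replaced because RPM values were not whole reads. Members and lists were chosen with earlier results of these data known. Genes named were the members, the 10 most and 5 least alike by r, the neighbours (5 protein-coding genes on each side), and list members. Lists also held Cdk1, Tfap2c, Hbb-b1, Cdx2, Spi1, Lep, Ctsq, Tpbpa, Hand1 and Prl3b1, which were not analysed here. Alternatives were other pseudocounts, filters and scalings, leaving out each library, blocks, and single sources or treatments.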

Additional observations from a re-analysis of the deposited data

Results flagged for a closer look

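Among 40 genes and sums, in 80 groups of 4 or 6 libraries, 5 values stood apart from the rest of their group. A chance rate of about 1 in 20 would hold for independent values. These genes share libraries and most were picked because they were called, so the number cannot be set against that rate. All 5 were in flat culture 3: Jun at 569 RPM (the other flat cultures 91.7 to 133 RPM), Fos at 436 RPM (16.9 to 79.8 RPM), Fosb at 284 RPM (2.76 to 19.6 RPM), Atf3 at 31.5 RPM (1.46 to 3.8 RPM) and Per1 at 39.3 RPM (8.02 to 10.9 RPM). The proliferin genes had no value of this kind in either group. The source of these values was not tested.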

How the results depend on the processing

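The difference of reaggregates minus flat cultures kept its sign for every proliferin gene and the sum in each alternative run. For each of them every flat culture stood above every reaggregate, so leaving out libraries or groups could not change the sign. The family was also selected on this difference, so the kept sign is no separate support. Against de Bruijn flat cultures alone it was -6.63 for the sum, -6.23 for Prl2c2 and -6.97 for Prl2c3, and against unlabelled ones -2.37, -2.25 and -2.34. Leaving out a library gave -5.32 to -3.64 for the sum, -5.00 to -3.42 for Prl2c2 and -5.54 to -3.73 for Prl2c3. Genes higher in reaggregates numbered 1239, and 766 to 2121 on leaving out a library; lower, 1106, and 815 to 1522. Averaging consecutive reaggregates gave 312 higher and 429 lower, only reaggregates without IL-3 345 and 474, and only those with IL-3 277 and 360, each with fewer samples. De Bruijn flat cultures alone gave 2579 and 1775, and unlabelled ones 627 and 1044. Reaggregate and flat libraries share numbers, but their deviations correlated at -0.04, -0.21, 0.07 and 0.15, and 1 of 4 reaggregates correlated best with its own number, so the numbers did not pair them; with the replicate block 1885 genes were higher and 1154 lower, and the sum differed by -4.85. Consecutive reaggregates correlated at 0.50, 0.72 and 0.76, and as a block 0 genes differed with IL-3, and 564 in place of 68 had an unadjusted p under 0.05. With IL-3, the difference in the sum was 0.42, and moved both ways on leaving out a library, to -0.35 without reaggregate 3, 0.92 without reaggregate 1 and larger still without reaggregate 4.

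Between flat sources 965 genes differed, 204 with no filter and 2348 in the fit of all 10 libraries with 3 groups. In that fit, leaving out a flat culture gave 1497 to 2525, with the lone culture of a source assumed to vary like the others. Quantile normalization moved the median of all genes from -0.17 to 0.03 and median-ratio scaling to -0.06; the former gave 507 higher and 635 lower in place of 309 and 656. Of 35 genes named from the lists and the neighbours and called between culture forms, 13 were called in all 22 alternatives and 0 changed sign. Calls fell most (22 lost) with averaged reaggregates or a single IL-3 treatment, and 15 were lost against unlabelled flat cultures. Members below 3 reads are limited by depth.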
